A study of Mus musculus with 28 samples.

Results

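Microglia are the resident macrophages of brain tissue, and 9 genes that mark or equip them were followed along the body axes of the mouse brain: Cx3cr1, P2ry12, Tmem119, Csf1r, Aif1, Trem2, C1qa, C1qb and Itgam. They were taken by symbol and not by a rule on their measured values, though earlier results of these data were known. They are 9 of the 20660 symbols that could be given to the probes of the array. In Transcriptome Tomography a frozen brain is cut along 1 axis and runs of sections are collected into fractions, each of which is measured on an array of its own. The brains came from 3 male C57BL/6J mice aged 3 weeks, with no other treatment named: 1 mouse gave 12 coronal fractions, 1 gave 6 horizontal fractions and 1 gave 10 sagittal fractions. Each position was therefore measured once, mouse and plane are the same thing, and positions are given as fraction numbers. By its label the last coronal fraction, number 12, was collected together with a following one and may be wider. The whole tissue of a fraction was used, so fewer microglia and less RNA per microglial cell cannot be told apart in any result that follows.

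Microglia survey the parenchyma with fine processes, and most of their signature genes encode receptors or secreted proteins. Cx3cr1 is the receptor for the neuronal chemokine Cx3cl1, P2ry12 is a purinergic receptor that guides processes toward ATP and ADP, and Tmem119 is a membrane protein used to tell microglia from other macrophages. Csf1r is the receptor tyrosine kinase on which microglial survival depends, with Csf1 and Il34 as its ligands, and Trem2 is a lipid-sensing receptor that signals through the adaptor Tyrobp. C1qa and C1qb encode chains of complement C1q, which tags synapses for removal, Aif1 encodes the actin-binding protein IBA1 used to stain microglia, and Itgam encodes CD11b, the alpha chain of complement receptor 3. Many myeloid genes are driven by the transcription factor PU.1 (Spi1), whose binding sites hold a purine-rich GAGGAA core.

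Promoter windows from 250 bases before to 50 after the start of the gene were available for 6 of the 9 genes in the RefSeq table of build GRCm38.p6, that is for Cx3cr1, P2ry12, Aif1, Trem2, C1qb and Itgam. The windows of 3 genes that moved together along the axes, and of Itgam, whose probes disagreed, are shown with the letters GAGGAA, on either strand, in capitals (TTCCTC where the match lies on the other strand). They lie at chr17:35176003-35176302 on the minus strand (Aif1), chr17:48346151-48346450 on the plus strand (Trem2), chr4:136886151-136886450 on the minus strand (C1qb) and chr7:128062390-128062689 on the plus strand (Itgam), and each is written 5′ to 3′ along the gene.
Aif1: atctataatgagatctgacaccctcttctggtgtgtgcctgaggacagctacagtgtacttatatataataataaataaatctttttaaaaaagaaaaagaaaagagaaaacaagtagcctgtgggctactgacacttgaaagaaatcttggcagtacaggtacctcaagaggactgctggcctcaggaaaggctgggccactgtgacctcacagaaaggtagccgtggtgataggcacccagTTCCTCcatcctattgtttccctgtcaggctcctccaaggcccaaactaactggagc
Trem2: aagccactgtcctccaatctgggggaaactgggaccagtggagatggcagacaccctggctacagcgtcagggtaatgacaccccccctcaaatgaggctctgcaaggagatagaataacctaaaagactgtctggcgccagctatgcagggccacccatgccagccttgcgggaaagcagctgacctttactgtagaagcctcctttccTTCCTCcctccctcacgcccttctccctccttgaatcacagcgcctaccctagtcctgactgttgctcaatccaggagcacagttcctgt
C1qb: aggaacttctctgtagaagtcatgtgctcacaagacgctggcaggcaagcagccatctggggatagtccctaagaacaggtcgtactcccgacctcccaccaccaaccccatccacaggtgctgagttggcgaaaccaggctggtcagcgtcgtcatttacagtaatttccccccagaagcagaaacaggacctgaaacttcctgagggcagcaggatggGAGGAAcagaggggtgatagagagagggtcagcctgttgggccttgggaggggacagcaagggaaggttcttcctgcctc
Itgam: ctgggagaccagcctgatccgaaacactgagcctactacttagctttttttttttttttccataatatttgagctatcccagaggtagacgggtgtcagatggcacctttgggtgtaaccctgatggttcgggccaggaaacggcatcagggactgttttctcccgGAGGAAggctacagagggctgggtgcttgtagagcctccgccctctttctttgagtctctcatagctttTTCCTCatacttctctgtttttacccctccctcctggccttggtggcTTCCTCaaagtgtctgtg
The letters were found in 4 of the 6 windows, with 1 match in each of Aif1, Trem2 and C1qb and 3 matches in Itgam, and in 0 places of the windows of Cx3cr1 and P2ry12. Of all 32851 windows of the same length, 28.3% hold them. A match of letters is a description of the sequence and not a bound site.

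All 9 probes were well above background on all 28 arrays and entered the tests. The arrays differed in brightness: the 75th percentile of the signal, to which each level is set, ran from 135 in sagittal fraction 1 to 574 in coronal fraction 4, and 24822 to 34240 probes were well above background. Repeated spots of a probe on 1 array had a median SD of 0.056 to 0.085 log2, which is technical error only. A level is log2 of the probe's signal minus that of the array's 75th percentile, so 1 unit is a 2-fold difference between fractions for the same probe. Probes differ in brightness for technical reasons, and no gene's level was set against another's. The arrays lay on 4 slides: all 6 horizontal fractions and coronal fractions 1 and 2 on slide 1, coronal fractions 3 to 10 on slide 2, coronal fractions 11 and 12 and sagittal fractions 5 to 10 on slide 3, and sagittal fractions 1 to 4 on slide 4.

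To place the fraction numbers in the brain, genes known for a region were read in the same arrays (these were chosen after the data had been seen). Hoxb5, a hindbrain and spinal cord gene, was highest in coronal fraction 1 (3.82), and the cerebellar granule cell gene Gabra6 was high in fractions 2 (4.91) and 3 (4.83). The hypothalamic neuropeptide gene Hcrt peaked in fraction 7 (5.66), the striatal gene Rgs9 in fractions 8 (5.37) and 9 (5.32), and the olfactory bulb gene Doc2g in fractions 11 (6.73) and 12 (6.23). The coronal numbers thus ran from the back of the brain to the front. The cortical gene Lamp5 was highest in horizontal fraction 1 (3.65), and the hypothalamic gene Oxt in horizontal fraction 6 (5.04). In the sagittal series Oxt was highest in fractions 5 (5.18) and 6 (4.73), between which the midline was taken to lie. The labels do not mark the midline, and Doc2g was highest in sagittal fractions 6 (2.70) and 7 (2.67), so its place is approximate.

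Along the coronal axis, 8 of the 9 genes, all but Itgam as read by its brightest probe, were lowest in the fractions that held cerebellum and rose to a maximum in front of the striatum. Their mean level was 2.08 in fraction 3 and 2.16 in fraction 2, rose to 3.16 in fraction 5, and reached 3.89 in fraction 10 before it fell to 2.88 in fraction 12. Of the 8 genes, 7 were lowest in fraction 3 and P2ry12 was lowest in fraction 2, and all 8 were highest in fraction 10. The array of fraction 10 had the lowest 75th percentile (251) of the coronal series and the highest median probe relative to it (-3.62). Before scaling, Aif1 alone of the 8 genes had its highest coronal signal there (3336). Cx3cr1 had 6688 in fraction 10 and 10204 in fraction 7, and Csf1r had 18400 in fraction 10 and 26579 in fraction 5. The part of this array in the maximum was not tested.

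**Figure D1:**
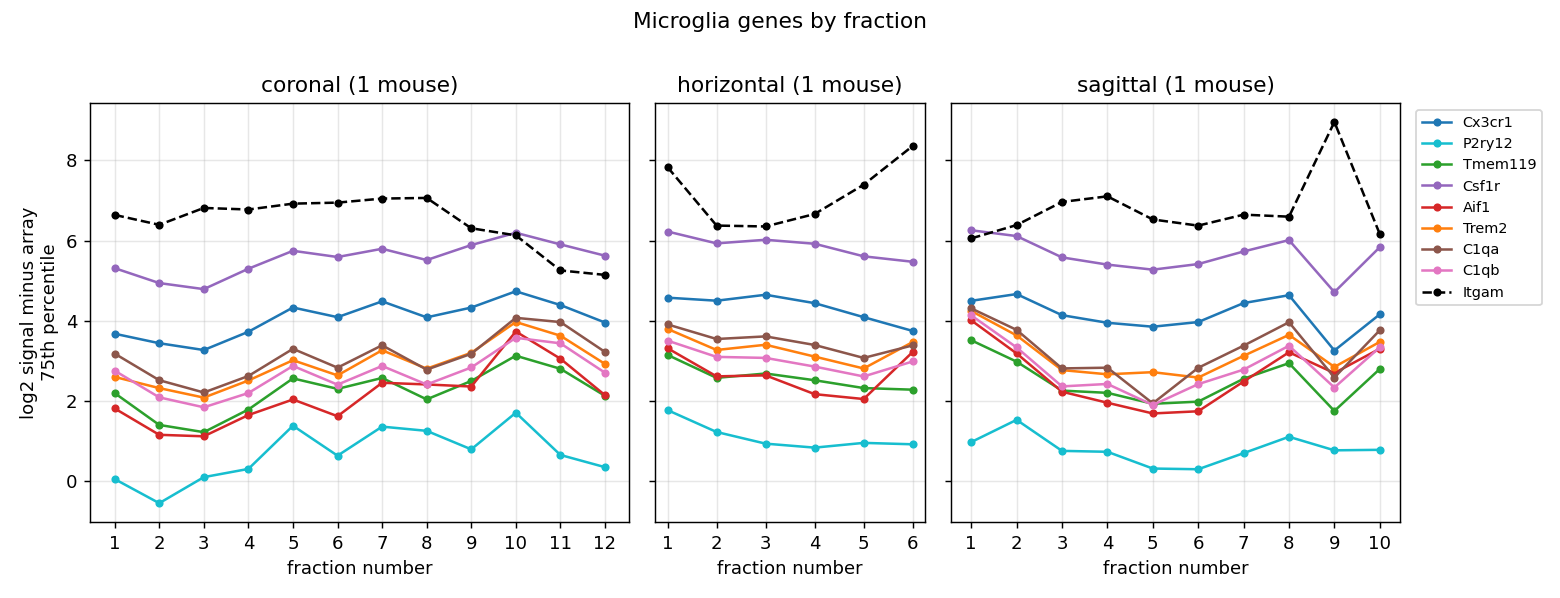
Level of each of the 9 genes (log2 signal minus the array's 75th percentile) against fraction number in the coronal, horizontal and sagittal series, 1 array per point and 1 mouse per panel. The solid lines of 8 genes share a low at coronal fractions 2 and 3 and a high at coronal fraction 10, while Itgam (dashed) runs its own course with highs at sagittal fraction 9 (8.96) and horizontal fraction 6 (8.36).

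**Figure D2:**
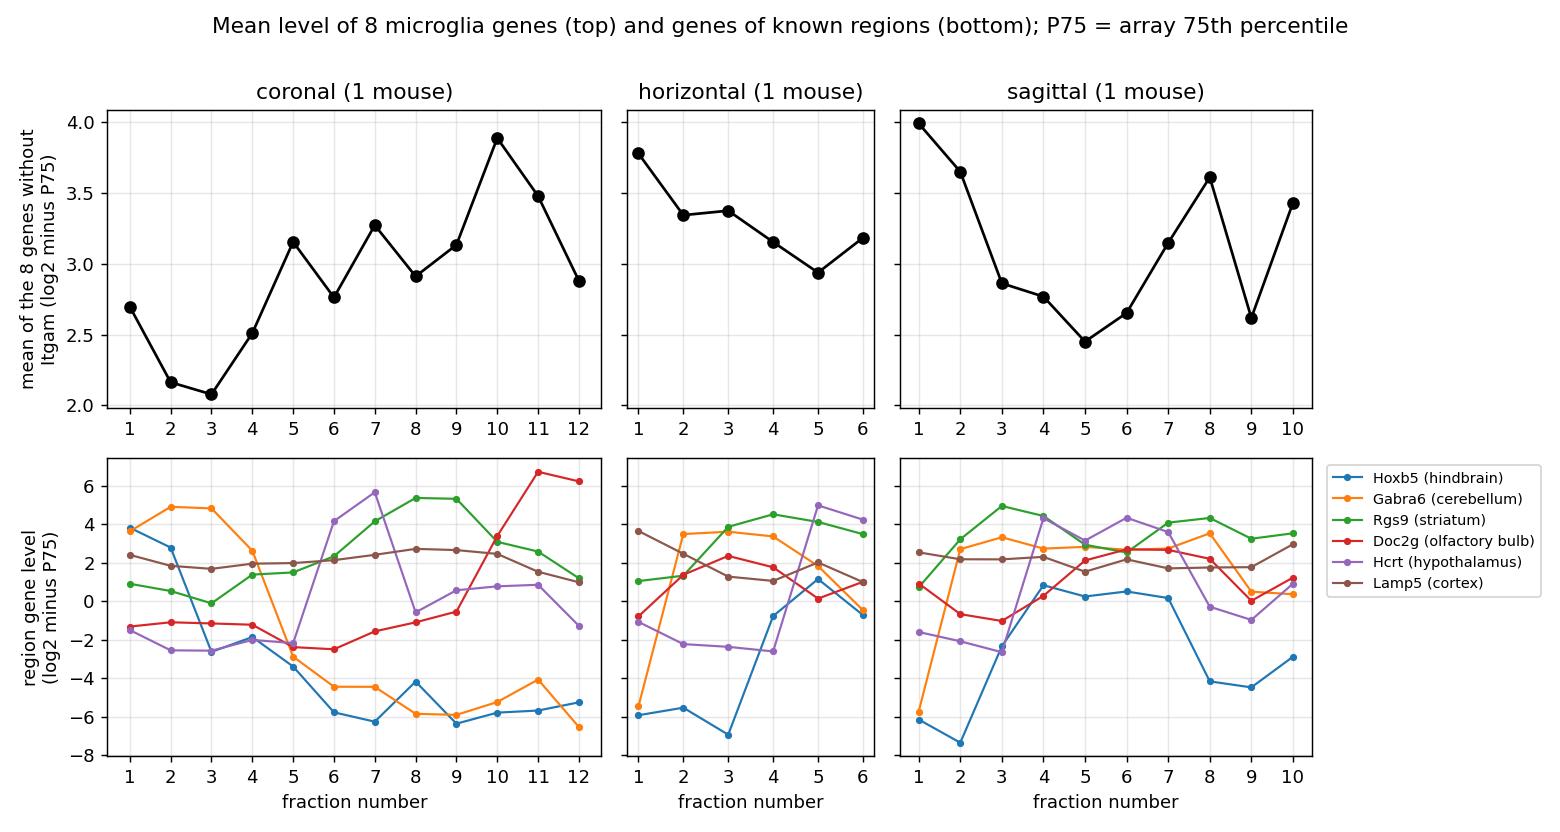
Mean level of the 8 genes without Itgam (top row) above the levels of 6 genes of known regions (bottom row), by fraction number, 1 array per point. The coronal mean is lowest (2.08) at fraction 3, where Gabra6 of the cerebellum is high, and highest (3.89) at fraction 10, between the striatal peak of Rgs9 and the olfactory bulb peak of Doc2g.

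Of the surveying receptors, Cx3cr1 ran from 3.27 (coronal fraction 3) over a median of 4.09 to 4.74 (fraction 10), a 2.76-fold range. P2ry12 ran from -0.55 over 0.64 to 1.71, a 4.78-fold range, with high values also in fractions 5 (1.38), 7 (1.36) and 8 (1.25). Tmem119 ran from 1.22 over 2.25 to 3.13, a 3.75-fold range. All 3 genes were lowest at the cerebellar fractions and highest in fraction 10, and with 1 array per position no error of a single step exists.

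Csf1r had the narrowest coronal range, from 4.79 (fraction 3) over a median of 5.61 to 6.20 (fraction 10), or 2.65-fold. Trem2 ran from 2.08 over 2.86 to 3.97, or 3.70-fold, with fraction 11 (3.63) second. The C1q chains ran side by side: C1qa from 2.21 over 3.18 to 4.07 (3.64-fold) and C1qb from 1.84 over 2.73 to 3.58 (3.33-fold). Aif1 had the widest range, from 1.12 (fraction 3) and 1.15 (fraction 2) over a median of 2.09 to 3.73 (fraction 10), or 6.13-fold.

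A straight line over the 12 coronal fractions was fitted by limma, with Benjamini-Hochberg adjustment over all 32364 tested probes and a threshold of 0.05. Of the 9 genes 3 rose toward the front, where 12.6% of all tested probes passed and 5.83% of all tested probes passed and rose. Aif1 rose by 0.156 ± 0.041 log2 per fraction (SE, n = 12 fractions, limma adjusted p = 0.0284), Trem2 by 0.112 ± 0.031 (limma adjusted p = 0.0337) and Csf1r by 0.085 ± 0.024 (limma adjusted p = 0.0375). The slopes of Cx3cr1 (0.086), P2ry12 (0.098), Tmem119 (0.096), C1qa (0.099) and C1qb (0.091) were of like size and had limma adjusted p-values of 0.0614 to 0.185, and that of Itgam was -0.117 (0.087). The residual SD around the line was 0.28 log2 for Csf1r and up to 0.59 for P2ry12.

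The coronal calls sat near the threshold. None of the 9 genes passed when fraction 2, 3, 4 or 11 was left out or when slide was a term, and only Aif1 passed without fraction 9 or 10. Without fraction 1 there were 5 (Csf1r, Aif1, Trem2, C1qa and C1qb), and without fraction 12 there were 7 (Cx3cr1, P2ry12, Tmem119, Csf1r, Aif1, Trem2 and C1qb). Quantile normalization gave 3, with Itgam, which fell, in the place of Csf1r. The mean over a gene's probes also gave 3, with Cx3cr1 in the place of Csf1r. Within the single slide of fractions 3 to 10, the same 3 genes passed, with slopes of 0.147 (Csf1r), 0.284 (Aif1) and 0.198 (Trem2). The log2 of the array's 75th percentile itself moved against the mean of the 8 genes (r = -0.70 over the 12 coronal fractions), and with it as a term 0 genes passed, with slopes of 0.069 (Csf1r), 0.101 (Aif1) and 0.074 (Trem2). Its part in the result was not tested further.

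A curve (natural spline with 3 degrees of freedom) described the coronal course of 6 of the 9 genes, where 33.7% of all probes passed. Itgam, by its brightest probe, had the smallest limma adjusted p (0.000821), followed by Aif1 (0.0281), P2ry12 (0.038), Cx3cr1 (0.0396), Csf1r (0.046) and Trem2 (0.0491). The other 2 Itgam probes did not pass (limma adjusted p = 0.248 and 0.301), nor did the other 2 of Csf1r (0.333 and 0.314). The second Cx3cr1 probe did (0.0483). With the mean of a gene's probes, only Cx3cr1, P2ry12 and Aif1 passed. The values of Tmem119, C1qa and C1qb were 0.138, 0.139 and 0.134. With slide as a term 0 of the 9 passed. Without fraction 2, 3 or 11 only Itgam passed, without fraction 4 or 7 only Itgam and Aif1, and without fraction 6, 9 or 10 these and P2ry12.

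In the sagittal series the mean of the 8 genes was high in fractions 1, 2 and 8, low around the midline and low again in fraction 9. Their mean was 3.99 in fraction 1 and 3.65 in fraction 2, fell to 2.45 in fraction 5 and 2.65 in fraction 6, rose again to 3.61 in fraction 8, dropped to 2.62 in fraction 9 and stood at 3.43 in fraction 10. Aif1 ran from 1.69 (fraction 5) over a median of 2.59 to 4.01 (fraction 1), or 5.01-fold. C1qa ran from 1.94 (fraction 5) over 3.10 to 4.31 (fraction 1), or 5.17-fold, and C1qb from 1.90 (fraction 5) over 2.60 to 4.13 (fraction 1), or 4.71-fold. Trem2 ran from 2.58 (fraction 6) over 2.99 to 4.24 (fraction 1), or 3.17-fold. The array of fraction 1 had the lowest 75th percentile of all arrays (135). Before scaling, Aif1 had 2180 in fraction 1 and 3316 in fraction 2, and C1qb had 2375 and 3681. The log2 of the 75th percentile moved against the mean of the 8 genes (r = -0.546 over the 10 sagittal fractions). The part of this array in the high of fraction 1 was not tested.

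Cx3cr1, Tmem119 and Csf1r had their sagittal lows in fraction 9, not at the midline. Cx3cr1 was 3.26 there and 3.85 in fraction 5, with its highest level of 4.67 in fraction 2 and a level of 4.16 in fraction 10, close to its median of 4.15. Tmem119 was 1.75 in fraction 9 and 1.93 in fraction 5, with a high of 3.51 in fraction 1. Csf1r was 4.71 in fraction 9 and 5.27 in fraction 5, with a high of 6.26 in fraction 1. P2ry12 was near its median of 0.76 in fractions 9 (0.77) and 10 (0.78) and was lowest in fractions 6 (0.29) and 5 (0.31). Fraction 9 stood apart as an array: its median probe minus its 75th percentile was -2.53 log2, against -4.04 to -3.51 in the other sagittal fractions, and its 75th percentile of 176 was lower than on any array but that of fraction 1. Whether this has a part in the dip was not tested.

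Distance from the middle of the series (between fractions 5 and 6), which stood for the unmarked midline, was tested as a line. Of the 9 genes 3 rose with distance, where 20.8% of all probes passed and 13.1% of all probes passed and rose. Aif1 rose by 0.46 ± 0.08 log2 per fraction away from the midline (SE, n = 10 fractions, limma adjusted p = 0.0102), C1qb by 0.34 ± 0.10 (limma adjusted p = 0.041) and Trem2 by 0.28 ± 0.09 (limma adjusted p = 0.0454). C1qa had the same slope as C1qb (0.34 ± 0.12) with a limma adjusted p of 0.0634. Tmem119 (0.24), P2ry12 (0.16), Csf1r (0.13), Cx3cr1 (0.061) and Itgam (0.012) had values of 0.104 to 0.968.

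Leaving out fraction 9 raised the count to 6 (Tmem119, Csf1r, Aif1, Trem2, C1qa and C1qb). Without fraction 1, 2, 4, 5, 6 or 7 only Aif1 passed, and it also passed with slide as a term. With each array scaled to its median probe, 0 genes passed, where 1413 of all 32364 probes did. All 3 called slopes stayed positive (0.29 for Aif1, 0.11 for Trem2 and 0.17 for C1qb), and those of Cx3cr1, P2ry12 and Csf1r turned to -0.11, -0.013 and -0.045. That scaling moves all probes: the median slope over all tested probes was 0.037 with the 75th percentile and -0.133 with the median, and the share of rising calls among all calls went from 62.9% to 15.1%. It was 45% with quantile normalization and 75.9% with normexp. The same 3 genes passed under both, but with normexp 10681 of all 32364 probes passed and rose, a share like that of the 9 genes. With log2 of the 75th percentile as a term, 0 genes and 0 of all probes passed, and the slopes were 0.35 (Aif1), 0.19 (Trem2) and 0.28 (C1qb).

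**Figure D3:**
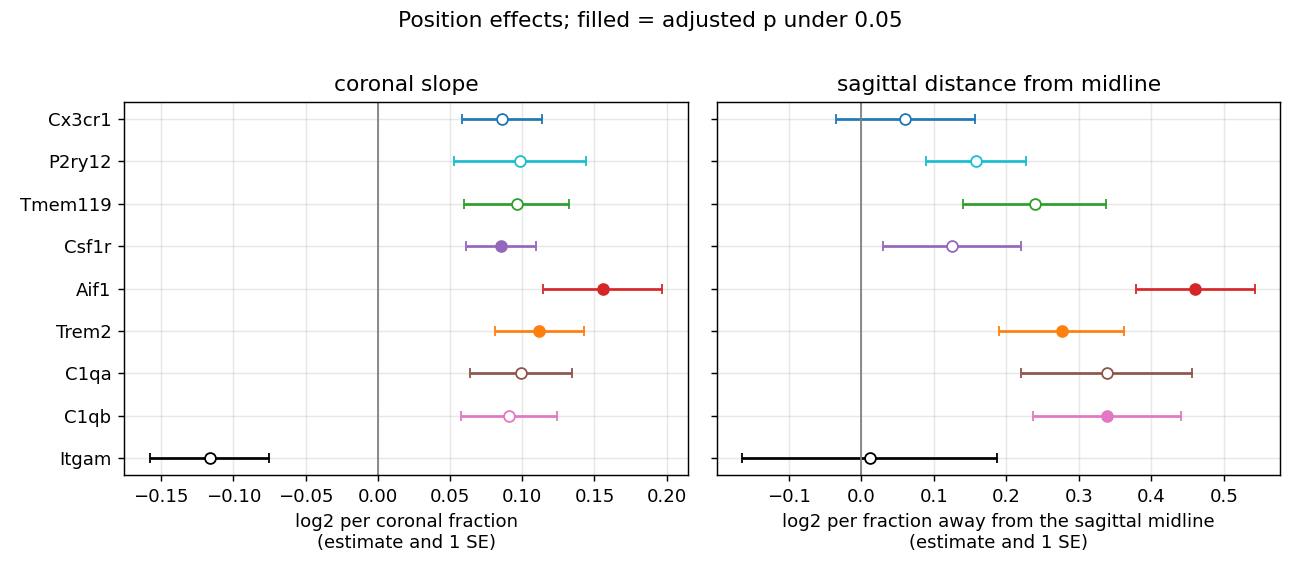
Slope of each gene with its SE along the coronal axis (left, log2 per fraction, 12 fractions) and with distance from the sagittal midline (right, log2 per fraction, 10 fractions), with filled points for limma adjusted p-values under 0.05. The 8 genes other than Itgam have coronal slopes of 0.085 to 0.156, while Itgam lies at -0.117, and Aif1 has the largest slope on both axes.

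The sagittal curve was called for Aif1 (limma adjusted p = 0.0121) and Trem2 (0.0489), 2 of the 9 genes, where 14.7% of all probes passed. C1qb had 0.0548 and the other 6 genes 0.132 to 0.805. Without fraction 9 the count was 6, without fraction 10 it was 4 and without fraction 1 it was 0, while leaving out any 1 of fractions 2 to 7 kept only Aif1. The share of all probes in these fits is not given here, so their counts are not read as an excess or a lack.

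Sagittal fractions on one side of the midline were compared with those on the other, with the mirror pair as a block. In this test 0 of the 9 genes passed (limma), as did 0% of all probes, and 0 genes had an unadjusted p under 0.05. The means of fractions 1 to 5 and 6 to 10 were 4.22 and 4.09 for Cx3cr1, 2.61 and 2.69 for Aif1, and 3.13 and 3.30 for C1qa. The differences (6 to 10 minus 1 to 5) ran from -0.18 for Csf1r to 0.34 for Itgam, with SEs of 0.22 to 0.45. Outer mirror fractions differed in the cerebellar gene Gabra6. It was -5.73 in fraction 1 and 0.36 in fraction 10, and 2.71 in 2 and 0.50 in 9. It was close in 3 (3.33) and 8 (3.53), 4 (2.74) and 7 (2.74), and 5 (2.83) and 6 (2.68). Fractions 1 to 4 lay on slide 4 and 5 to 10 on slide 3, so side and slide were the same but for fraction 5. A count of 0 therefore cannot show that the sides were alike.

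In the horizontal series, 7 of the 8 genes were highest in fraction 1, the cortical end, and Cx3cr1 was highest in fraction 3 (4.65) with fraction 1 at 4.58. The ranges of the 8 genes were narrower than in the coronal series, from 1.69-fold to 2.41-fold for Aif1, and Itgam's used probe had 4.02-fold. They were 1.69-fold for Csf1r (5.47 to 6.23, median 5.93), 1.82-fold for Tmem119 (2.28 to 3.15, median 2.55) and 1.91-fold for P2ry12 (0.83 to 1.77, median 0.94). At the base of the brain the genes parted. Aif1 rose from 2.05 in fraction 5 to 3.22 in fraction 6, close to its 3.31 in fraction 1, and Trem2 from 2.81 to 3.47, while Cx3cr1 fell from 4.09 to 3.75 and Csf1r from 5.61 to 5.47. The array of fraction 6 had the second highest median relative to the 75th percentile (-2.79) of all 28. That of fraction 1 had -3.13, against -3.85 to -3.51 in fractions 2 to 5, and a 75th percentile of 267. Before scaling, only P2ry12 (913) and Aif1 (2661) of the 8 genes were highest in fraction 1. Csf1r had 20035 there and 27519 in fraction 4, and C1qa had 4016 there and 5053 in fraction 3. The part of these arrays in the levels was not tested.

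The horizontal slope was called for 0 of the 9 genes by limma, where 0.00309% of all probes passed, and 3 of the 9 had an unadjusted p under 0.05. Slopes of the 8 genes ran from -0.160 ± 0.055 log2 per fraction (Cx3cr1) to -0.075 ± 0.118 (Aif1), with limma adjusted p-values of 0.332 to 0.885. Only 1 probe of 32364 passed, and with log2 of the 75th percentile as a term 742 probes and 0 of the 9 genes did. The horizontal curve (2 degrees of freedom) was called for Itgam alone (limma adjusted p = 0.0319), where 15.8% of all probes passed. It was lost without fraction 3, 4 or 6. Scaled to the median probe 6 genes passed, without Itgam, where 19347 of all 32364 probes passed, and with normexp 5, where 9066 did.

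Between the series, no difference in the mean level of a gene passed its test. Csf1r had means of 5.55 ± 0.41 (SD, n = 12 fractions), 5.86 ± 0.28 (n = 6) and 5.63 ± 0.46 (n = 10) in the coronal, horizontal and sagittal brain. Aif1 had 2.13 ± 0.75, 2.67 ± 0.52 and 2.65 ± 0.77, and Tmem119 had 2.22 ± 0.56, 2.59 ± 0.31 and 2.49 ± 0.56. In limma, 0 of 9 genes differed between horizontal and coronal (3.47% of all probes passed, 1.95% higher and 1.52% lower), 0 of 9 between sagittal and coronal (0.139%) and 0 of 9 between sagittal and horizontal (0.0154%), and 0 had an unadjusted p under 0.05 in any of the 3. The largest of these differences was that of Itgam, 0.71 ± 0.37 higher in horizontal than in coronal (limma adjusted p = 0.351). Among all calls of that comparison 56.2% were higher in the horizontal brain, against 28.7% with the array median, 40.5% with quantile normalization and 25.3% with normexp, and with slide as a random block 9 probes passed. Fractions of 1 mouse served as units here, so these p-values describe the 3 brains and not mice in general.

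Among the 8 genes, profiles centred within each series correlated over the 28 fractions with a median r of 0.85 over 28 pairs. The highest was that of the C1q chains, C1qa with C1qb (r = 0.981), followed by Cx3cr1 with Csf1r and Aif1 with Trem2 (both 0.958). The lowest was P2ry12 with C1qa (0.597), and Cx3cr1 with Aif1 gave 0.619. The genes thus fell into those near Csf1r and Cx3cr1, those near Trem2, Aif1 and C1q, and P2ry12 as the least alike, with Tmem119 close to both (0.952 with Csf1r and 0.941 with C1qb). These values share arrays and neighbouring fractions, and are given as a description.

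The Itgam probe used here behaved differently. This probe (A_55_P1977934), the brightest of 3 for the gene, was highest in the middle coronal fractions 7 (7.05) and 8 (7.07), fell to 5.26 and 5.14 in fractions 11 and 12, and had the peaks in sagittal fraction 9 and horizontal fraction 6 already named. The arrays of these fractions were the ones whose median probe was highest relative to the 75th percentile. Its r with the mean of the other 8 genes was -0.337 over 28 fractions. The gene most like it was Idua, a lysosomal enzyme gene (r = 0.999), followed by Fgf23 (0.999), Mcidas (0.998), Hexim2 (0.998) and Slc17a5 (0.996), and 27 of 12269 symbols (0.22%) passed r = 0.95. The 4 after Idua were looked up after its value had been seen. What the probe binds was not tested.

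The other 2 Itgam probes gave another picture. Probe A_55_P1977929, well above background on 28 of 28 arrays, ran with the 8 genes at r = 0.535 and with the used probe at r = 0.092. It was lowest in coronal fractions 2 (-2.64), 12 (-2.58) and 3 (-2.61) within its series, was highest in horizontal fraction 1 (-1.42), and gave -2.05 in sagittal fraction 9. Probe A_55_P1977926, well above background on 21 of 28 arrays, had r values of 0.452 and 0.194. In the horizontal series it was like the used probe: highest in fraction 6 (-2.79) and called by the curve (limma adjusted p = 0.0279). Probe A_55_P1977929 was not called there (0.249). The coronal slopes of the 3 probes were -0.117, 0.014 and 0.074. The 3 Itgam probes therefore disagree, and no single course can be given for the gene.

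**Figure D4:**
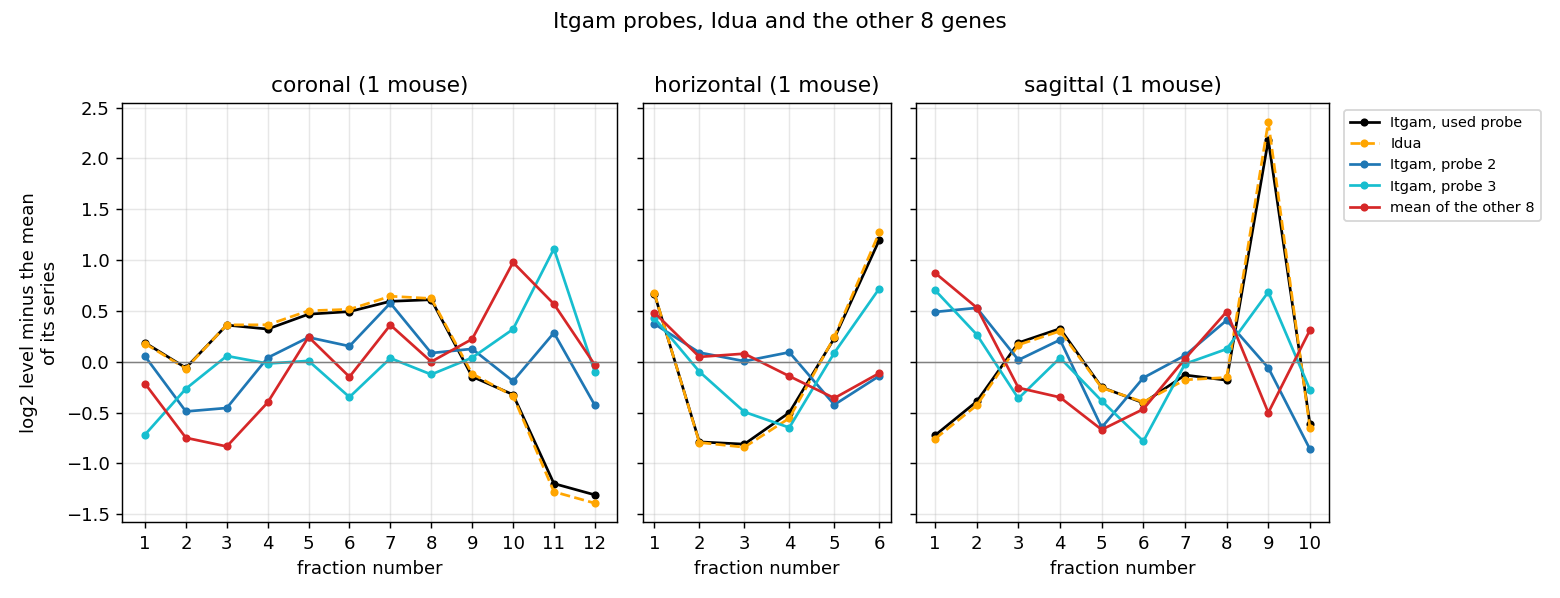
Level minus the mean of its series for the used Itgam probe, Idua, the other 2 Itgam probes (probe 2 is A_55_P1977929, probe 3 is A_55_P1977926) and the mean of the other 8 genes, by fraction number, 1 array per point. The used Itgam probe and Idua overlie each other (r = 0.999) and peak at sagittal fraction 9, where the mean of the 8 genes dips.

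Csf1r and Cx3cr1 also had several probes. The second Cx3cr1 probe ran with the first at r = 0.905 and passed the coronal slope test that the first missed (0.103 ± 0.028, limma adjusted p = 0.0343). Of the 2 dimmer Csf1r probes, one ran with the used probe at r = 0.934 and the other at r = 0.26, and neither passed the coronal slope test that the used probe passed (0.066 and 0.042, limma adjusted p = 0.233 and 0.291). The latter was highest in sagittal fraction 9 (1.29), where the used probe was lowest, and rose with distance from the midline (0.30 ± 0.09, limma adjusted p = 0.0341).

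The ligands and partners of the 9 genes were read next, 12 genes of which 11 were tested. In the coronal slope 2 rose and 1 fell (all probes: 5.83% rising and 6.73% falling), and in the sagittal distance again 2 rose and 1 fell (13.1% and 7.72%). The ligands of Csf1r went opposite ways on both axes. Il34, a ligand made largely by neurons, rose toward the front by 0.175 ± 0.037 log2 per fraction (limma adjusted p = 0.00928) and away from the midline by 0.28 ± 0.07 (limma adjusted p = 0.0184). Csf1, the other ligand, fell by 0.091 ± 0.024 (limma adjusted p = 0.0286) and by 0.35 ± 0.07 (limma adjusted p = 0.0119).

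Il34 was 1.25 in coronal fraction 3 and 1.71 in fraction 2, the fractions where Csf1r was also low, and 3.77 in fraction 9 and 3.58 in fraction 10. Csf1 was highest in coronal fraction 1 (1.44) and lowest in fraction 10 (-0.05), where Csf1r was highest. In the sagittal series Il34 was 4.27 in fraction 1 and 2.75 in fraction 5, and Csf1 was -0.20 in fraction 1 and 1.18 in fraction 4, with its lowest level of -0.41 in fraction 9, where Csf1r was also lowest. Of the 11 ligands and partners, the coronal count of 3 became 1 without fraction 2, 4 or 11 and 5 without fraction 12. The sagittal count of 3 became 1 without fraction 1 and 5 without fraction 9. It became 0 scaled to the median probe, where 1413 of all probes passed, against 6732 in the main test. It was also 0 with the 75th percentile as a term, where 0 of all probes passed. Neither 0 is read as a lack.

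**Figure D5:**
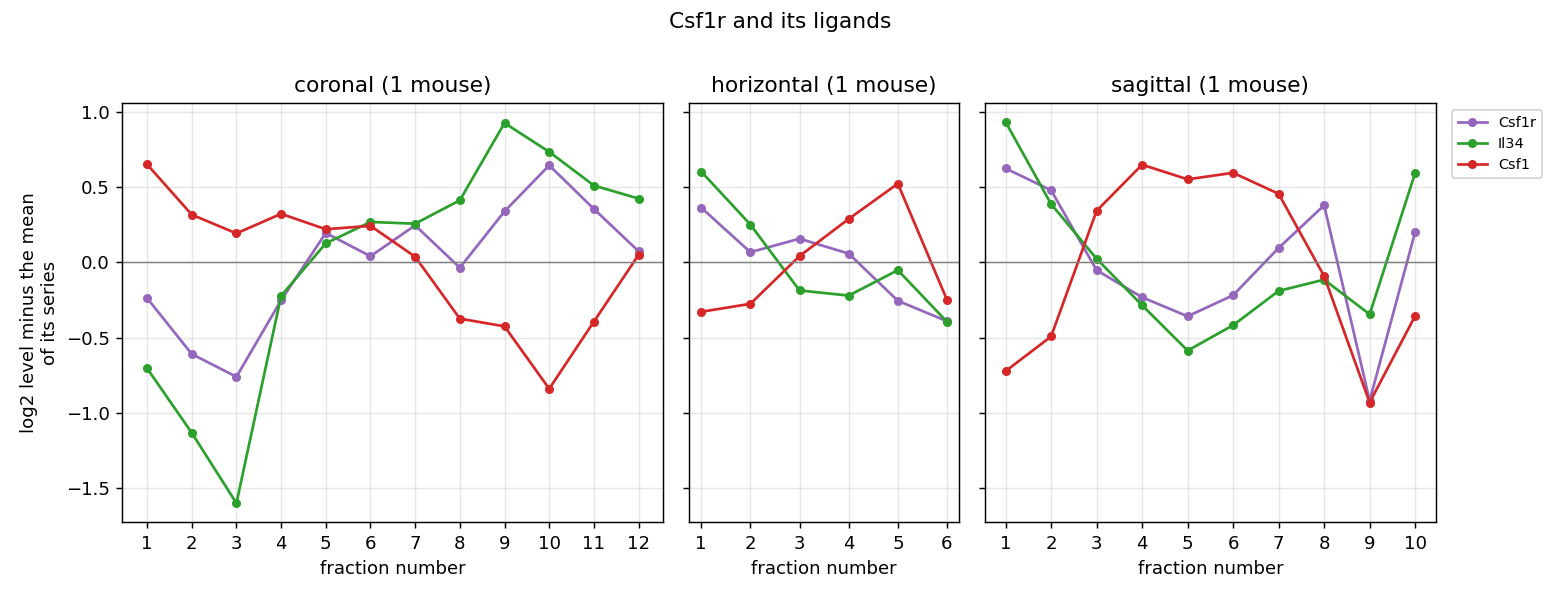
Csf1r and its ligands Il34 and Csf1 by fraction number, each as log2 level minus its mean in that series, 1 array per point and 1 mouse per panel. Il34 and Csf1 run opposite ways along the coronal axis (slopes of 0.175 and -0.091 per fraction) and from the sagittal midline outward (0.28 and -0.35).

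Tyrobp, the adaptor of Trem2, rose on both axes, by 0.148 ± 0.044 per coronal fraction (limma adjusted p = 0.0461) and by 0.55 ± 0.13 per fraction from the midline (limma adjusted p = 0.0162). It was 2.32 in coronal fraction 3, 4.91 in fraction 10 and 5.58 in sagittal fraction 1. C1qc, the remaining C1q chain, had slopes of 0.101 and 0.25 (limma adjusted p = 0.083 and 0.0717), close to those of C1qa and C1qb. Cx3cl1, the ligand of Cx3cr1, had a coronal slope of 0.193 (limma adjusted p = 0.0535) and ran from 4.23 in coronal fraction 3 to 7.36 in fraction 9. Itgb2, which pairs with Itgam in complement receptor 3, had 0.042 and 0.188 (0.329 and 0.0667). Apoe, a ligand of Trem2, had 0.040 and 0.091 (0.407 and 0.514) and was highest in sagittal fraction 1 (10.06). Tgfb1, which maintains the microglial state, had 0.0082 and 0.057 (0.903 and 0.707). Cd200 (-0.0013 and -0.127), Cd47 (-0.024 and -0.096) and Sirpa (0.017 and -0.023) had limma adjusted p-values of 0.217 to 0.99, and Cd200r1 did not pass the filter on dim probes.

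A list of 25 other microglia genes had 23 on the array, all tested. On the coronal axis 7 rose and 0 fell, and with distance from the midline 7 rose and 0 fell, where 5.83% and 13.1% of all probes rose. The median slopes were 0.091 and 0.22 log2, against 0.0023 and 0.037 for all tested probes. The 4 largest coronal slopes among those called were Sall1, a transcription factor of microglial identity also found in other brain cells (0.178 ± 0.035, limma adjusted p = 0.00659), Tyrobp, Cd33 (0.115 ± 0.033) and Ltc4s (0.106 ± 0.028). From the midline they were Tyrobp, Cd53 (0.34 ± 0.09), Ltc4s (0.32 ± 0.09) and Adgre1 (0.25 ± 0.08), the gene of the macrophage antigen F4/80. Leaving out 1 fraction moved the coronal count between 1 (without fraction 2 or 3) and 14 (without fraction 12), and the sagittal count between 0 (without fraction 1) and 18 (without fraction 9). With slide as a term the counts were 1 and 3, where 1886 and 6346 of all probes passed. Scaled to the median probe they were 7 and 0, where 3383 and 1413 of all probes passed. Of those 1413 probes only 213 rose, so the 0 is not read as a lack.

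Of 8 myeloid transcription factors 2 rose toward the front (Sall1 and Mef2c, which neurons express as well), where 5.83% of all probes did. From the midline 0 passed (limma), where 20.8% of all probes did. With normexp 4 passed, where 14077 of all 32364 probes did, and without sagittal fraction 9 it was 5. The share of all probes in the fit without fraction 9 is not given here, so the 5 is not read as an excess. With slide as a term 0 of the 8 factors passed the coronal slope test, where 1886 of all 32364 probes did. Spi1 was well above background on 13 of 28 arrays, Ikzf1 on 16 and Runx1 on 19, so no course is read for these factors. Of 12 complement genes outside the 9, among them C1qc, 9 were tested. C3 alone passed the coronal slope test, falling toward the front (-0.109 ± 0.016, limma adjusted p = 0.00134), as 6.73% of all probes did. With distance from the midline 1 rose and 1 fell, where 13.1% and 7.72% of all probes did, and the one that fell was Cd59a (-0.22). Of 14 activated microglia genes 11 were tested. Cst7 and Igf1 rose toward the front, where 5.83% of all probes did. From the midline 3 passed as rising (Cst7, Ccl4 and Il1b) and 2 fell (Spp1 and Igf1, which other brain cells also express), against 13.1% and 7.72% of all probes. Il1b was well above background on 9 of 28 arrays and Cst7 on 21, and the lowest level well above background itself ran from -5.85 in sagittal fraction 4 to -3.03 in fraction 9, so no rise in expression is read from these probes.

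Among 12269 symbols well above background in every fraction and outside the 9 genes, those most like the mean of the 9 included Ncf1 (r = 0.98), Irf8 (0.965), C1qc (0.96), Abi3 (0.957), Crybb1 (0.953), Was (0.944), Arhgap45 (0.943) and Rac2 (0.939), over 28 fractions centred by series. The nearest symbol was Nckap1l for Cx3cr1 (0.945), Gpr34 for P2ry12 (0.913), P2ry6 for Csf1r (0.959), Cd300c2 for Aif1 (0.977) and C1qc for Trem2 (0.972). Fcrls was nearest to Tmem119 (0.968), C1qa (0.956) and C1qb (0.976). With the mean of the 8 genes without Itgam, 158 symbols (1.29%) passed r = 0.85.

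Markers of other cells moved with these profiles to different degrees. Of 10 markers of border macrophages, the macrophages of meninges and vessels, 9 were well above background in every fraction and Cd163 was not in any coronal or sagittal fraction. Their summed signal, relative to the 75th percentile, ran from 4.61 (fraction 6) to 18.3 (fraction 10) in the coronal series, from 6.35 (fraction 5) to 16 (fraction 6) in the horizontal and from 6.82 (fraction 4) to 23.6 (fraction 1) in the sagittal. Of the 9 tested, 2 rose on the coronal axis and 5 from the midline (Lyve1, Pf4, Ms4a7, Cd209f and Clec4n), where 5.83% and 13.1% of all probes rose. The r of the border macrophage mean with the 8 genes was 0.724, with 0.642 in the coronal, 0.622 in the horizontal and 0.877 in the sagittal series. Border macrophages also express Csf1r, Aif1 and the C1q genes. Their part in the result was not tested.

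Of 10 blood leukocyte markers on the array, 9 were tested. Of these, S100a8, S100a9, Plac8, Camp and Cd3e were well above background on 28 arrays and Lyz2 on 26. Retnlg was so on 11, Ngp on 10 and Ccr2 on 3, so no course is read for Retnlg, Ngp and Ccr2. In the straight-line tests 0 passed on either axis (limma), where 12.6% (coronal) and 20.8% (sagittal) of all probes passed. The coronal curve was called for 4 and the sagittal curve for 1, where 33.7% and 14.7% of all probes passed. The summed signal of the markers ran from 3.55 to 11.7 (coronal), 3.45 to 13.9 (horizontal) and 4.07 to 13.1 (sagittal). It was highest in coronal fraction 10, horizontal fraction 6 and sagittal fraction 1, and the r of the markers' mean with the 8 genes was 0.508. Erythroid markers differed between the brains: all 4 tested were higher in the horizontal than in the coronal brain (1.95% of all probes were). Hba-a1 was higher by 2.18 ± 0.40 log2 (limma adjusted p = 0.00696). Each brain is 1 mouse, and with slide as a random block 9 of all probes passed this comparison, against 1122 without it. The summed erythroid signal was 101 to 562 in the horizontal, 19.9 to 120 in the coronal and 31.6 to 113 in the sagittal series. The part of blood in the values of the 9 genes was not tested.

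Myelin genes ran the other way. All 8 oligodendrocyte markers fell toward the front (6.73% of all probes fell), 5 of 8 fell with distance from the midline (7.72% of all probes fell), and the r of their mean with the 8 genes was -0.559. Their summed signal was 1540 in coronal fraction 1 and 362 in fraction 12, and 87.2 in sagittal fraction 1 against 1330 in fraction 7. The mean of the neuron markers gave r = -0.457, over members that went both ways. On the coronal axis 3 of 8 rose and 3 fell, where 5.83% and 6.73% of all probes did, and r ran from 0.649 for Map2 to -0.645 for Nefl. The mean of the astrocyte markers gave -0.176, with -0.616 in the coronal, 0.491 in the horizontal and 0.167 in the sagittal series. Endothelial markers gave 0.401 over all fractions, with -0.275, 0.459 and 0.845 in the same 3 series, and their members went both ways (0.75 for Kdr and -0.466 for Flt1). Meningeal fibroblast markers gave 0.459, with 0.178, 0.686 and 0.809, and erythroid markers 0.323, with -0.074, 0.942 and 0.791. The astrocyte, endothelial and erythroid values thus differed in sign between series. The part of these other cell types in the course of the 9 genes was not tested.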

How the data were processed

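Total RNA of the fractions was labelled with Cy3 and hybridised to 1-colour Agilent arrays, 28 in all. The authors scanned the arrays and deposited intensity values, here the processed signal of Agilent Feature Extraction 10.5.1.1, for 55681 probes. The authors also deposited log2 values, of which 99.2% lay within 1e-04 of log2 of the processed signal minus the array's 75th percentile, apart from an offset per array, and these served as an alternative. Here, spots flagged as outliers were left out (108 to 176 per array), spots of a probe were averaged, and log2 of the signal was taken minus that of the 75th percentile. A probe was tested if each of the 3 series had it well above background somewhere, which held for 32364. Probes were named by accession through a RefSeq table of GRCm38.p6 (27235 of 55681). The probe with the highest mean was used for a gene. Tests were made with limma 3.58.1 under R 4.3.3 and checked on simulated data, with Benjamini-Hochberg values over all tested probes. Correlations were Pearson's, over profiles centred by series. Named in the text were the 9 genes, all ligands and partners, the 4 largest called slopes of the other microglia genes, the 10 symbols most like the mean of the 9 and the symbol nearest to each. Some genes that these rules or the lists take are not reported here. The genes, lists and tests were chosen with earlier results of these data known. Alternatives were array median, quantile and normexp scaling, other filters, the mean over probes, the deposited log2 values, slide and block terms, other curves and leaving out each fraction. Normexp used the median foreground, because no mean foreground was in the columns read. The 75th percentile as a term, the fit without sagittal fractions 1 and 9 and the region genes were added after seeing the data. Fraction numbers are positions, not replicates.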

Additional observations from a re-analysis of the deposited data

Results flagged for a closer look

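In 18 groups of fractions (9 genes in the horizontal and the sagittal series), 1 value stood apart from the rest of its group by Dixon's test, about as many as chance gives (1 in 20 groups). It was the used Itgam probe in sagittal fraction 9, at 8.96 against 7.10 in the next highest fraction, a gap of 0.639 of the whole range. Idua, whose profile ran with that probe at r = 0.999, was also highest in that fraction. The coronal series of 12 fractions was not tested in this way.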

How the results depend on the processing

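The fits are of 1 array per position in 3 brains, so no alternative can show how another mouse would vary. The horizontal slope, the 3 differences between series and the difference between sagittal sides called 0 of the 9 genes under every alternative run, the fraction number as a replicate block included (0), and no true pairing exists because a number is a position. The coronal slope called 3 genes, and 0 with no filter on dim probes, with slide as a term or with log2 of the 75th percentile as a term. The sagittal distance called 3, and 0 scaled to the array median, with the 75th percentile as a term or in fractions 5 to 10 alone, and 1 with no filter, with slide as a term, or measured from fraction 5 or 6. The coronal curve called 6, and 3 with no filter or with the mean of a gene's probes, 0 with slide, and 2 in fractions 3 to 10 alone or with 4 degrees of freedom. The horizontal curve called 1, and 6 with the array median, 5 with normexp, 3 with a filter on all fractions, and 0 with 3 degrees of freedom. The sagittal curve called 2, and 0 with the array median or without fractions 1 and 9 together, and 1 with slide, 2 or 4 degrees of freedom. Leaving out 1 fraction gave 0 to 7 (coronal slope), 1 to 6 (sagittal distance), 1 to 6 (coronal curve), 0 to 1 (horizontal curve) and 0 to 6 (sagittal curve). For every fit without 1 fraction the share of all probes is not given here. Counts from those fits, here and above, therefore show only how calls moved. The causes were not tested.

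Signs turned only for values that had not passed. The sagittal distance slope became, with the array median, -0.11 for Cx3cr1, -0.013 for P2ry12, -0.045 for Csf1r and -0.16 for Itgam, with normexp -0.023 for Cx3cr1 and -0.063 for Itgam, and in fractions 5 to 10 alone -0.030 for Cx3cr1. Itgam's was also -0.19 with quantile normalization, -0.092 with the 75th percentile as a term, -0.028 from fraction 6 and -0.076 without fractions 1 and 9. Its r with the other 8 genes was 0.064 in the horizontal series alone. The median difference of the 9 genes became -0.033 (horizontal minus coronal), -0.011 (sagittal minus coronal) and 0.048 (sagittal minus horizontal) with the array median, and between sides 0.069 with quantile normalization and 0.054 with slide. Leaving out 1 fraction moved the horizontal slope between -0.298 and 0.063 for Aif1 and between -0.059 and 0.50 for Itgam, Itgam's sagittal slope between -0.12 and 0.12, and the median difference between sides between -0.251 and 0.119.

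Over all probes, the coronal slope called 4063 and 1886 with slide. The sagittal distance called 6732, but 1413 with the array median, 14077 with normexp, 3405 with no filter, 2799 from fraction 6 and 0 with the 75th percentile as a term or in fractions 5 to 10 alone. The horizontal slope called 1, but 41 with the stricter filter and 742 with the 75th percentile as a term. The coronal curve called 10910, but 241 with slide, 4164 in fractions 3 to 10 and 17330 with no filter. The horizontal curve called 5115, but 19347 with the array median, 9066 with normexp and 1603 with 3 degrees of freedom. The sagittal curve called 4767, but 337 with the array median, 2627 with quantile normalization, 14295 with normexp, 19184 with no filter, 2520 with slide, 938 without fractions 1 and 9 and 3088 with 4 degrees of freedom. Horizontal against coronal called 1122, but 2559 with the array median, 407 with normexp, 474 with the stricter filter and 9 with slide as a random block. Sagittal against coronal called 45, with 9 to 376 over its alternatives other than leaving out a fraction, sagittal against horizontal 5, with 0 to 36, and the sides 0, with 396 under the array median.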
